A study of Caenorhabditis elegans with 6 samples.

Results

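The 8 genes described here are the shunt genes acdh-1, hach-1, hphd-1 and alh-8 and the canonical genes pcca-1, pccb-1, mce-1 and mmcm-1 of propionate breakdown in Caenorhabditis elegans. They were chosen by gene symbol, and all 8 were found among the 18811 genes of the tables and passed the low-count filter that left 12144 genes. Propionate is a short-chain fatty acid made when worms break down branched-chain amino acids, methionine and odd-chain fatty acids, and it is toxic when it builds up. The worm clears it by a canonical route that ends in an enzyme needing vitamin B12, and, when B12 is scarce, by a B12-independent shunt of beta-oxidation type whose genes are switched on by lasting propionate excess. The acdh-1 promoter is widely used as a reporter of low B12 for that reason, and Escherichia coli, the usual laboratory food, does not make B12 from scratch.

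RNA was taken from whole synchronized adults grown on agar plates at 20 °C and moved at the fourth larval stage to Escherichia coli BW25113, a K-12 strain and the parent of a widely used knockout collection, or to the mutant strain named purE, with 3 libraries per diet. All 6 libraries share this growth scheme. The worm strain, the adult age and the nature of the purE mutation are not stated in the labels, and neither is whether replicates were separate cultures, so p-values measure the spread between these samples only. The gene purE is known from bacteria as an enzyme gene of purine synthesis, the series asks how microbial genes bear on the life span of the animal that eats them, and every comparison is of worms fed purE over worms fed BW25113.

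Library totals ran from 21880627 to 22607939 estimated counts, and the 8 genes held between 0.272% (purE replicate 2) and 0.472% (purE replicate 1) of them. The purE libraries were not alike: across genes tested, the correlation of log2 CPM (counts scaled to library size) between purE replicate 1 and BW25113 replicate 3 was 0.978, but only 0.860 between purE replicates 1 and 2. Between them stood purE replicate 3, with 0.952 to each. The correlation of purE replicate 2 with the BW25113 libraries was 0.821 to 0.839. All 7 intestinal markers tested were present in every library. Their summed levels were 1269 to 1644 CPM on BW25113 and 1284, 2623 and 2150 CPM on purE. Much of this sum was act-5, at 573 to 626 CPM on BW25113 and 610, 1477 and 1254 CPM on purE. Not all intestinal markers followed it. For cpr-1 the levels were 324 to 717 CPM on BW25113 and 268, 384 and 345 CPM on purE. pept-1 stood at 13.5 to 25.0 CPM and 29.7, 21.6 and 26.6 CPM. ges-1 changed little, at 14.7 to 15.3 CPM and 14.8, 16.8 and 15.6 CPM. Summed levels of 6 yolk protein genes, made in the adult intestine, were 57916 to 74371 CPM on BW25113 and 55499, 28808 and 57311 CPM on purE. Summed levels of 7 sperm markers were 282 to 494 CPM on BW25113 and 604, 4792 and 2431 CPM on purE. For 8 oocyte and germline markers the sums were 3324 to 4062 CPM on BW25113 and 2986, 2006 and 3133 CPM on purE. Not all of these followed the sum, with pgl-1 at 106 to 189 CPM on BW25113 and 150, 124 and 143 CPM on purE. Body wall muscle markers, 8 in number, summed to 10263 to 11290 CPM and 11195, 19186 and 16468 CPM. For 8 neuronal markers the sums were 282 to 323 CPM and 292, 488 and 373 CPM, though unc-119 was lowest in purE replicate 2. Summed levels of 8 hypodermal markers were 3519 to 4309 CPM and 2469, 7575 and 6586 CPM. Not all hypodermal markers followed that sum. The cuticle gene dpy-13 stood at 20.4 to 99.7 CPM on BW25113 and 59.9, 3799 and 1039 CPM on purE. In contrast, lin-26 stood at 78.2 to 98.9 CPM and at 71.9, 34.5 and 52.4 CPM. In whole worms, fewer cells of a type and less RNA per cell cannot be told apart.

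In neither arm of the pathway did a difference between the diets pass the test. With edgeR's quasi-likelihood test 0 of the 8 genes were called at an adjusted p under 0.05 and 0 had an unadjusted p under 0.05. Over all genes tested 0 were called (0.00%), while 3.81% were lower and 12.7% higher on purE at an unadjusted p under 0.05. DESeq2 also called 0 of the 8, against 7.79% of all genes tested, and limma-voom called 0 of all genes. Several of the genes were widely spread inside the purE group. The shunt genes acdh-1, hach-1 and hphd-1 were each lowest of all 6 libraries in purE replicate 2, and acdh-1 and hach-1 were highest of all in purE replicate 1.

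**Figure D1:**
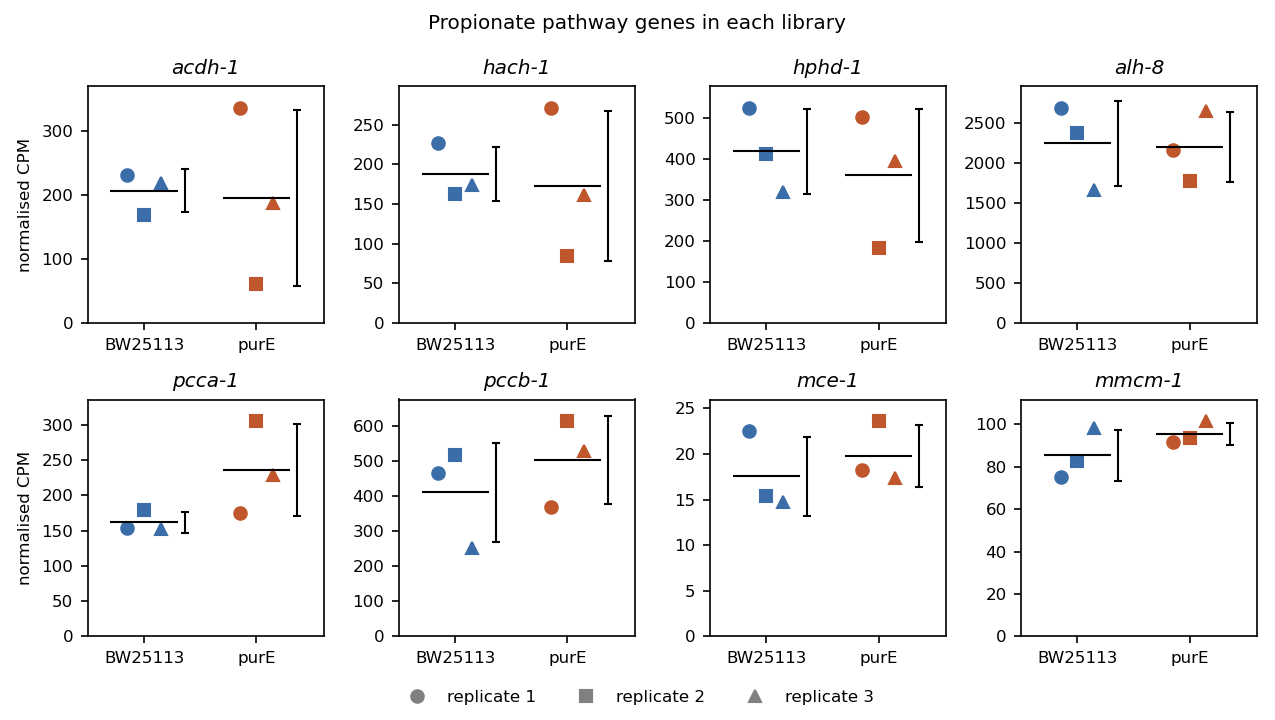
Normalised CPM (vertical axes, from 0) of the 8 genes by diet (horizontal axes), with a symbol per library, the mean as a bar and the SD beside it. The 3 purE values of acdh-1 span 60.7 to 336 CPM around BW25113 values of 168 to 232 CPM.

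The first step of the shunt, the oxidation of propionyl-CoA, is carried out by the acyl-CoA dehydrogenase gene acdh-1 (WBcel235 chromosome I, 6497436 to 6499560, forward strand). Its levels were 232, 168 and 219 CPM in BW25113 replicates 1 to 3 and 336, 60.7 and 188 CPM in purE replicates 1 to 3. Both extremes lay in the purE group, and the groups overlapped. The BW25113 mean was 206 ± 33.7 CPM and the purE mean 195 ± 138 CPM (SD, n = 3). Its log2 fold change was -0.08 ± 0.52 (SE), with a 95% interval of -1.27 to 1.11 (adjusted p = 0.938), so that both a 2-fold lower and a 2-fold higher level on purE lie inside it. Leaving out purE replicate 1 gave -0.87 ± 0.44 (adjusted p = 0.189) and leaving out purE replicate 2 gave 0.35, so the direction turned on a single library. Some other methods gave values farther below 0, -0.39 with limma-voom, -0.38 with the replicate block and -0.49 on log2(FPKM + 1). DESeq2 gave -0.12, and edgeR scaled by library size alone gave -0.08.

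The next step but one, the hydrolysis of 3-hydroxypropionyl-CoA, is carried out by hach-1 (chromosome III, 5555450 to 5557318, forward strand). It stood at 227, 163 and 174 CPM in the BW25113 libraries and at 271, 84.4 and 162 CPM in the purE libraries. Its library order was close to that of acdh-1, with purE replicate 1 at the top and purE replicate 2 at the bottom. The diet comparison gave a log2 fold change of -0.12 ± 0.40 (95% interval -1.04 to 0.80, adjusted p of 0.874). It was -0.74 without purE replicate 1, 0.21 without purE replicate 2 and 0.02 without BW25113 replicate 1. On log2(FPKM + 1) it was -0.38, and with limma-voom -0.27.

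The dehydrogenase gene hphd-1 (chromosome II, 12994354 to 12996571, reverse strand) turns 3-hydroxypropionate into malonic semialdehyde. It stood at 526, 413 and 319 CPM on BW25113 and at 502, 182 and 396 CPM on purE. Only purE replicate 2 lay outside the range of the BW25113 libraries. A log2 fold change of -0.22 ± 0.39 resulted (95% interval -1.11 to 0.67, adjusted p of 0.768), or -0.67 without purE replicate 1, 0.10 without purE replicate 2 and -0.43 on log2(FPKM + 1).

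The last enzyme of the shunt is the aldehyde dehydrogenase of alh-8 (chromosome II, 11729055 to 11731198, forward strand), which turns malonic semialdehyde into acetyl-CoA. Its levels were 2689, 2370 and 1663 CPM on BW25113 and 2161, 1778 and 2650 CPM on purE. All purE values lay within the BW25113 range, and the spread inside each group was similar. Its log2 fold change was -0.03 ± 0.29 (95% interval -0.69 to 0.64, adjusted p of 0.960), with 0.11 without purE replicate 2 and 0.10 without BW25113 replicate 1. The annotation places the protein-coding gene F13D12.8 over part of alh-8. The estimated counts of alh-8 were whole in every library, and a division of reads between these genes was not tested.

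The enoyl-CoA hydratase gene ech-6, which acts between acdh-1 and hach-1 and is not among the 8, stood at 442, 354 and 287 CPM on BW25113 and at 486, 259 and 428 CPM on purE. Here too purE replicate 2 was lowest and purE replicate 1 highest, but the range was narrower. Its log2 fold change was 0.12 ± 0.31 (adjusted p of 0.848), with -0.20 without purE replicate 1 and -0.03 in the deposited FPKM values.

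The canonical route starts with propionyl-CoA carboxylase, a biotin enzyme whose alpha subunit is encoded by pcca-1 (chromosome X, 7657542 to 7660986, reverse strand). It stood at 154, 179 and 152 CPM on BW25113 and at 175, 305 and 228 CPM on purE. In this gene purE replicate 2 was the highest library, and purE replicate 1 lay just under BW25113 replicate 2. Group means were 162 ± 15.2 CPM for BW25113 and 236 ± 65.4 CPM for purE (SD, n = 3), and the log2 fold change of 0.55 ± 0.27 had a 95% interval of -0.07 to 1.17. The p was the smallest of the 8 genes, 0.0774 unadjusted and 0.369 adjusted. The fold change on the log2 scale was 0.60 ± 0.27 without purE replicate 1 and 0.32 without purE replicate 2.

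The beta subunit gene pccb-1 (chromosome X, 3089549 to 3092437, forward strand) stood at 466, 518 and 251 CPM on BW25113 and at 369, 615 and 530 CPM on purE. It was highest in purE replicate 2 as well, while BW25113 replicate 3 stood low. Its log2 fold change was 0.29 ± 0.34 (95% interval -0.49 to 1.08, adjusted p of 0.652), and it was -0.05 without BW25113 replicate 3. The annotation places wrt-2 over part of this gene. The FPKM ratio of pccb-1 to pcca-1 was 4.03, 3.85 and 2.21 on BW25113 and 2.81, 2.69 and 3.09 on purE, with pccb-1 the higher of the pair in every library.

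Methylmalonyl-CoA epimerase is encoded by mce-1 (chromosome I, 7582106 to 7583333, forward strand), the least abundant of the 8. Its levels were 22.6, 15.4 and 14.7 CPM on BW25113 and 18.3, 23.6 and 17.4 CPM on purE, with groups that overlapped. For mce-1 the log2 fold change was 0.17 ± 0.28 (adjusted p of 0.751), or -0.02 and -0.03 without BW25113 replicates 2 and 3. The B12-dependent step itself belongs to methylmalonyl-CoA mutase, encoded by mmcm-1 (chromosome III, 3903185 to 3907687, reverse strand). It stood at 75.0, 82.7 and 98.4 CPM on BW25113 and at 91.6, 93.5 and 102 CPM on purE. The mutase gene varied least among the purE libraries, with an SD of log2 CPM of 0.08 there against 1.25 for acdh-1. Its log2 fold change was 0.16 ± 0.22 (95% interval -0.34 to 0.66, adjusted p of 0.698). Leaving out single libraries gave 0.02 (BW25113 replicate 2) to 0.19 (BW25113 replicate 3), and without purE replicate 1 it was 0.06.

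**Figure D2:**
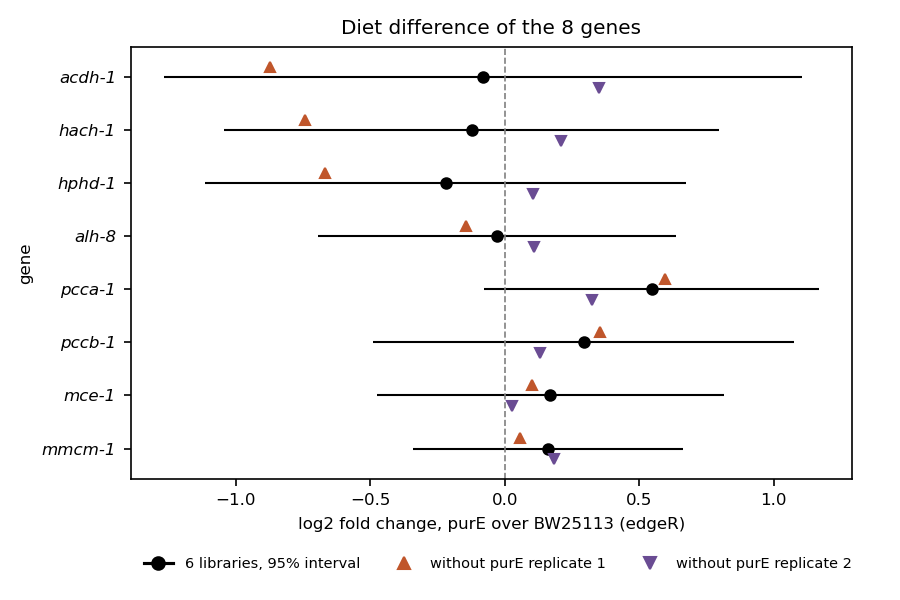
Log2 fold change of purE over BW25113 (horizontal axis, edgeR) for each gene (vertical axis). Black points with 95% intervals use 6 libraries, upward triangles leave out purE replicate 1 and downward triangles leave out purE replicate 2. All intervals include 0, and acdh-1 moves from -0.87 to 0.35 between the 2 omissions.

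For 0 of the 8 genes were the diets free of overlap, with purE wholly above (13.1% of all genes tested) or wholly below (6.68%). Without purE replicate 1, edgeR still called 0 of the 8 genes, whereas it called 3.48% of the genes tested as lower and 11% as higher on purE. The median log2 fold change was -0.10 for the 4 shunt genes, all 4 below 0, and 0.23 for the 4 canonical genes, all 4 above 0, beside 0.03 for all genes tested. Neither set of signs was stable, since the 4 shunt genes were all above 0 without purE replicate 2, and pccb-1 and mce-1 were each below 0 without BW25113 replicate 3.

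Between purE replicates 1 and 2, acdh-1, hach-1 and hphd-1 ran opposite to pcca-1 and pccb-1, while alh-8, mce-1 and mmcm-1 differed less. The ratio of purE replicate 1 to purE replicate 2, in normalised CPM, was 5.54 for acdh-1, 3.22 for hach-1, 2.76 for hphd-1 and 1.22 for alh-8. Only 1.64% of genes tested had a larger ratio than acdh-1, 5.34% than hach-1 and 7.72% than hphd-1, but 36.6% than alh-8. The canonical genes had ratios of 0.57 for pcca-1, 0.60 for pccb-1, 0.77 for mce-1 and 0.98 for mmcm-1. Such values were common, with larger ratios in 72.0%, 70.4%, 58.8% and 47.7% of genes tested and only 46.8% of all genes above 1. In the deposited FPKM values, which come in a separate table per diet and carry no further scaling here, the ratio was 7.60 for acdh-1 and 0.80 for pcca-1, and it exceeded 1 for mce-1 (1.08) and mmcm-1 (1.36).

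Set against the mean of the BW25113 libraries, the log2 CPM of acdh-1 of the purE libraries differed by 0.72, -1.75 and -0.12 in the order of their numbers. For pcca-1 the same differences were 0.12, 0.92 and 0.50. The FPKM ratio of acdh-1 to pcca-1 accordingly stood at 2.71, 1.69 and 2.61 on BW25113 and at 3.47, 0.364 and 1.48 on purE. In purE replicate 2 alone the first shunt gene was below the first canonical gene per length. Such extremes were common in that library, which was the lowest of the 6 for 31.8% and the highest for 36% of all genes tested. It was also the library with the least yolk RNA, the least oocyte and germline marker RNA and the most sperm marker RNA. The part of those differences in the shunt pattern was not tested.

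**Figure D3:**
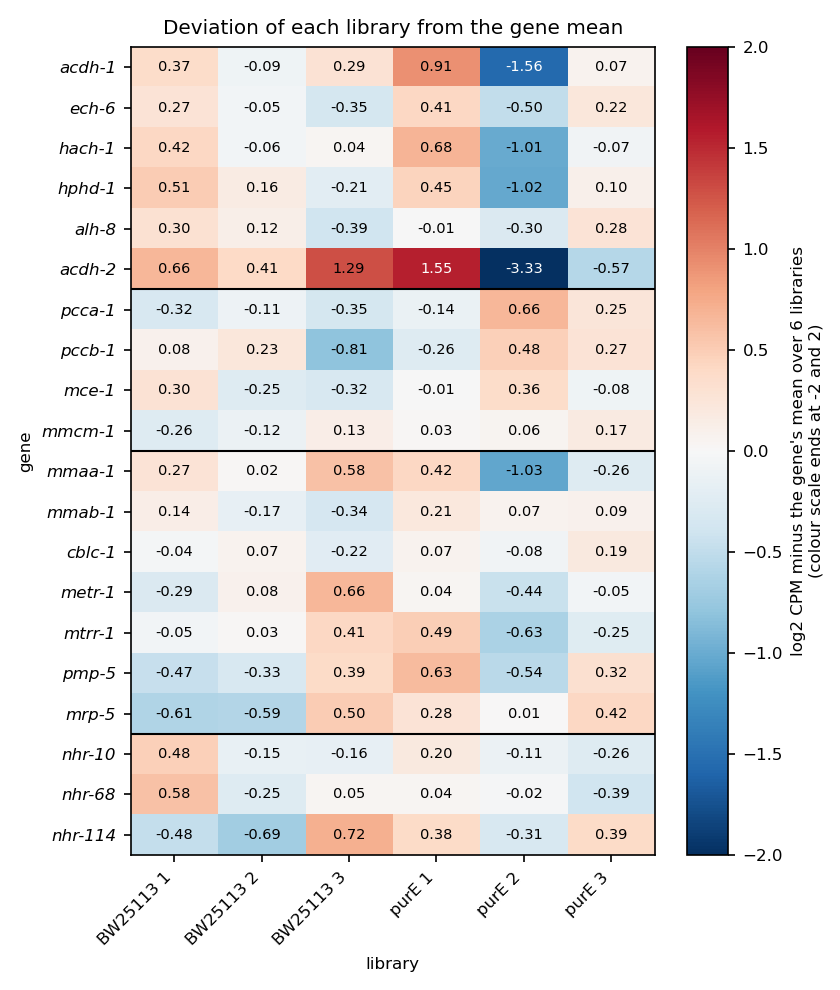
Log2 CPM minus the mean of the gene over 6 libraries (colour and printed value), with genes in rows and libraries in columns; horizontal lines separate shunt genes with acdh-2, canonical genes, B12 genes and receptors. The column of purE replicate 2 runs from -1.56 for acdh-1 to 0.66 for pcca-1 among the 8 genes.

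Across the 6 libraries the log2 CPM of acdh-1 had a Pearson correlation of 0.98 with hach-1, 0.90 with hphd-1 and 0.37 with alh-8. The shunt pairs had a median of 0.80 over 6 pairs, the canonical pairs 0.44 over 6 and the pairs between arms -0.38 over 16. Shunt pairs ran from 0.37 to 0.98, and canonical pairs from -0.36 (mce-1 with mmcm-1) to 0.72 (pcca-1 with pccb-1). Pairs between arms ran from -0.83 (acdh-1 with pcca-1) to 0.45 (alh-8 with pccb-1). These values describe 6 libraries whose genes share depth and scaling, and purE replicate 2 lay farthest from the mean for acdh-1, hach-1 and hphd-1. High values were frequent: of 7398 further genes averaging 5 CPM or more, 426 had a correlation above 0.9 with acdh-1 and 194 with hphd-1. Closest to acdh-1 were apc-10 (0.994), tag-115 (0.994), F10B5.2 (0.991), T24C4.5 (0.991) and C09B8.4 (0.989). Closest to hphd-1 were pot-2 (0.995), cpg-3 (0.992), C49F5.3 (0.984), clec-91 (0.981) and F14D2.15 (0.981). The enzyme gene ech-6 had 0.765 with acdh-1 and 0.894 with hphd-1.

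Levels between genes were compared per length, in FPKM. Averaged over the 6 libraries, alh-8 stood first with 1274 ± 245 FPKM (SD, n = 6), above 99.1% of all genes, and mce-1 last with 23.9 ± 4.48 FPKM, above 85.2%. Between them came hphd-1 (253 ± 99.0 FPKM), pccb-1 (246 ± 45.7 FPKM), acdh-1 (157 ± 88.1 FPKM), hach-1 (130 ± 60.1 FPKM), pcca-1 (80.6 ± 16 FPKM) and mmcm-1 (35.4 ± 6.59 FPKM). The lead of alh-8 over hphd-1, of pcca-1 over mmcm-1 and of mmcm-1 over mce-1 held in 6 of 6 libraries. The neighbours hphd-1 and pccb-1 did not differ beyond their spread, with hphd-1 higher in 3 of 6 libraries, and pccb-1 exceeded acdh-1 in only 4 of 6. In 5 of 6 libraries acdh-1 exceeded hach-1, and the exception was purE replicate 2, at 39.7 against 50.6 FPKM.

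**Figure D4:**
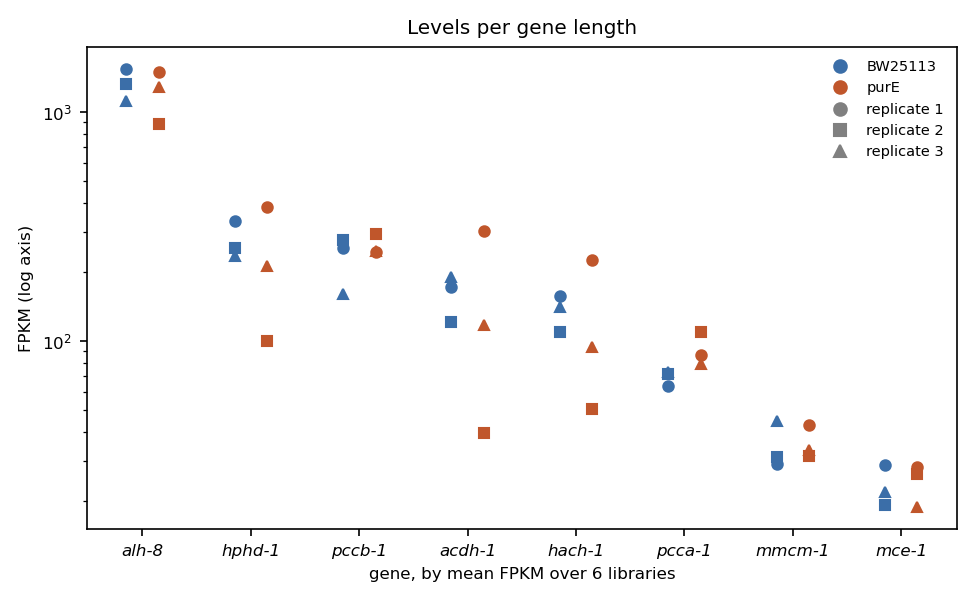
FPKM (vertical log axis) of the 8 genes in order of their mean (horizontal axis), with colour for the diet and shape for the replicate. The acdh-1 values run from 39.7 to 302 FPKM, whereas those of mmcm-1 run from 29.1 to 44.6 FPKM.

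Vitamin B12 must be taken up and turned into its cofactors before mmcm-1 or methionine synthase can work, and 7 genes of these steps were read alongside. edgeR called 0 of the 7, as it did 0.00% of all genes tested. At an unadjusted p under 0.05 there were 0 of the 7, against 3.81% lower and 12.7% higher on purE over all genes. Of the 7, 4 had positive values, against 51.6% of all genes, and the median log2 fold change was 0.12 beside 0.03. Only 2 of the 7 were positive without purE replicate 1, with a median of -0.11, and 3 without BW25113 replicate 3, with a median of -0.04. The gene mmaa-1, whose human counterpart guards the mutase and its cofactor, stood at 23.6, 19.9 and 29.3 CPM on BW25113 and at 26.1, 9.50 and 16.3 CPM on purE. It had the lowest value of the list, -0.49 ± 0.38, with -1.05 without purE replicate 1 and -0.19 without purE replicate 2. Like acdh-1, hach-1 and hphd-1 it was lowest in purE replicate 2, although it serves the canonical route. So were metr-1, mtrr-1 and pmp-5 of the same list, and that library was lowest for 31.8% of all genes tested.

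Methionine synthase, metr-1, had a log2 fold change of -0.34 ± 0.30 (-0.13 without BW25113 replicate 3), and its reductase partner mtrr-1 had -0.19 ± 0.34, or 0.03 without purE replicate 2 and -0.70 without purE replicate 1. The adenosyltransferase gene mmab-1 had 0.24 ± 0.25 (0.05 without BW25113 replicate 3) and the cobalamin processing gene cblc-1 had 0.12 ± 0.23, with -0.04 without BW25113 replicate 3 and -0.01 without purE replicate 1. Of the transporters, pmp-5, whose human counterpart moves B12 out of the lysosome, had 0.30 ± 0.36, with -0.11 without purE replicate 1. The exporter mrp-5, which carries B12 and haem out of the worm intestine, had 0.38 ± 0.35, with 0.76 without BW25113 replicate 3 and 0.07 without BW25113 replicate 2. It stood at 17.4 and 17.6 CPM in BW25113 replicates 1 and 2 but at 37.6 CPM in BW25113 replicate 3, above all purE libraries at 26.7 to 35.6 CPM.

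The nuclear receptors nhr-10 and nhr-68 switch on shunt genes under lasting propionate in worms, and nhr-114 answers to a low methionine cycle. edgeR called 0 of these 3 and of the further regulators mdt-15, sbp-1 and nhr-49, as it did 0.00% of all genes tested. None had an unadjusted p under 0.05, against 3.81% lower and 12.7% higher on purE over all genes. Of the 6, 2 were positive, against 51.6% of all genes, with a median log2 fold change of -0.05 beside 0.03. nhr-10 stood at 5.77, 3.69 and 3.66 CPM on BW25113 and at 4.74, 3.80 and 3.42 CPM on purE, a log2 fold change of -0.13 ± 0.36, with 0.10 without BW25113 replicate 1. nhr-68 stood at 15.5, 8.67 and 10.7 CPM and at 10.6, 10.2 and 7.86 CPM, a log2 fold change of -0.28 ± 0.32, with -0.04 without BW25113 replicate 1 and -0.56 without BW25113 replicate 2. Neither receptor gene was low in purE replicate 2 in the way acdh-1 was, with differences from the BW25113 mean of -0.17 and -0.15 in log2 CPM there. The value was 0.20 ± 0.40 for nhr-114, which became negative when BW25113 replicate 2 (-0.17), the first BW25113 library or the first purE library was left out. It was 0.35 ± 0.24 for sbp-1, a lipid regulator, and -0.09 ± 0.25 for nhr-49 (-0.31 without purE replicate 1). The Mediator subunit gene mdt-15 had -0.01 ± 0.24, whose sign changed under several settings.

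Reactions that feed the pathway were read from a wider list for the breakdown of branched-chain amino acids and methionine, chosen with earlier results of these data known. The list also held ivd-1 and mccc-1 of leucine breakdown, which does not yield propionyl-CoA, and both count in its totals. It had 17 genes, of which 15 were tested. All 15 had positive log2 fold changes, against 51.6% of all genes tested, with a median of 0.40 beside 0.03 for all genes tested, and 7 of the 15 had purE wholly above BW25113, against 13.1% of all genes. edgeR called 0 of them and 4 had an unadjusted p under 0.05, all higher on purE, as did 12.7% of all genes. Leaving out purE replicate 1 left 13 of the 15 positive with a median of 0.21, leaving out BW25113 replicate 2 or 3 left 13 as well, and in the deposited FPKM values 13 of 14 with a median of 0.26.

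The 4 genes were cth-1 and cth-2, cystathionine gamma-lyases whose 2-oxobutyrate product is a source of propionyl-CoA, the hydratase family gene ech-7 and the low-abundance gene acdh-4. cth-1 stood at 30.6, 22.6 and 15.1 CPM on BW25113 and at 101, 140 and 133 CPM on purE, a log2 fold change of 2.45 ± 0.32 (adjusted p = 0.129 with edgeR). It was called by DESeq2 (adjusted p = 6.96e-08) and by edgeR once purE replicate 1 was left out (adjusted p = 0.00296). cth-2 stood at 107, 92.1 and 139 CPM and at 154, 223 and 194 CPM, or 0.76 ± 0.27 in log2 fold change (adjusted p = 0.199). Both cth genes were higher in every purE library, purE replicate 1 included, which the shunt genes were not. ech-7 had 0.86 ± 0.35 (0.54 without BW25113 replicate 3), with purE replicate 1 at 139 CPM inside the BW25113 range of 75.4 to 153 CPM. acdh-4 had 1.90 ± 0.64 at 0.231 to 2.90 CPM over all libraries. It was highest in purE replicate 2, and its log2 fold change was 1.11 without that library. The lowest value of the list belonged to ivd-1 of leucine breakdown, with 0.11 ± 0.24, and it was -0.02 in the deposited FPKM values.

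**Figure D5:**
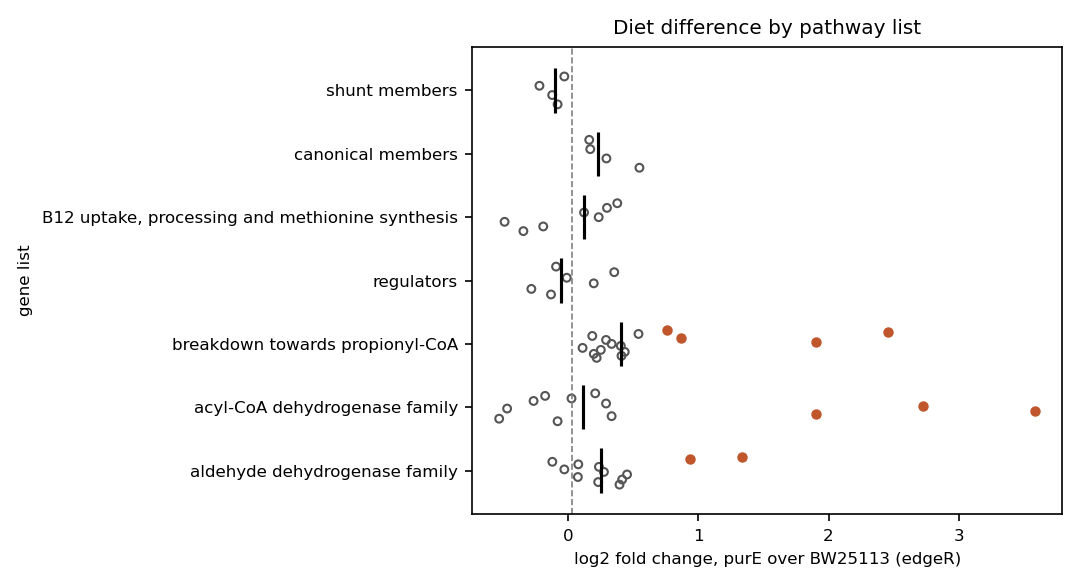
Log2 fold change of purE over BW25113 (horizontal axis, edgeR) of the tested genes of each list (vertical axis), with filled points for an unadjusted p under 0.05, a vertical bar at each list's median and a dashed line at the median of all genes tested, 0.03. Some acdh and alh genes stand in more than 1 list; the 15 breakdown genes all lie right of 0.

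The acyl-CoA dehydrogenase family, to which acdh-1 belongs, had 12 of its 13 genes tested. edgeR called 0, and 7 were positive (51.6% of all genes were), with a median log2 fold change of 0.12. Of the 12, 3 had an unadjusted p under 0.05, all higher on purE, beside 12.7% of all genes. The median was -0.02 without purE replicate 1, 0.31 without purE replicate 2 and -0.21 in the deposited FPKM values, where 4 of 10 genes were positive. The closest relative in pattern was acdh-2 (chromosome II, 5544778 to 5547492, reverse strand), a paralog of acdh-1. It stood at 5.51, 4.61 and 8.58 CPM on BW25113 and at 10.3, 0.264 and 2.30 CPM on purE. Its low in purE replicate 2 rested on 5 counts, against 280 in purE replicate 1, and its correlation with acdh-1 was 0.953. The log2 fold change was -0.53 ± 0.93, with -2.43 ± 0.74 without purE replicate 1 (adjusted p of 0.0564) and 0.03 without purE replicate 2. Both genes had counts that were not whole in some libraries, so reads shared with similar genes may have been divided.

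On the chromosome of acdh-1, acdh-3 (6464195 to 6466941, reverse strand) stood at 85.3, 66.9 and 49.4 CPM on BW25113 and at 84.6, 88.9 and 80.7 CPM on purE, a log2 fold change of 0.33 ± 0.26, or 0.07 without BW25113 replicate 3. Low-abundance members had the largest values of the family, acdh-5 with 3.59 ± 1.02, at 0 to 0.305 CPM on BW25113 and 0.515, 3.48 and 1.18 CPM on purE, and acdh-8 with 2.72 ± 0.67, at 0.600 to 1.22 CPM and 1.76, 10.7 and 4.81 CPM. Both were highest in purE replicate 2, where acdh-1 was lowest. edgeR gave adjusted p-values of 0.136 and 0.129, DESeq2 0.0100 and 0.00206, and edgeR without purE replicate 1 0.0230 and 0.00629.

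The aldehyde dehydrogenase family of alh-8 had 12 of its 13 genes tested. Of these, 10 were positive (8 with library size alone or in FPKM), against 51.6% of all genes. Their median log2 fold change was 0.26, beside 0.03 for all genes tested. edgeR called 0, and 2 of the 12 had an unadjusted p under 0.05, both higher on purE. That share lay near the 12.7% of all genes. The members with the low p were alh-12, at 9.09, 12.5 and 14 CPM on BW25113 and 24.0, 22.6 and 21.6 CPM on purE, and alh-13. For alh-12 the log2 fold change was 0.94 ± 0.27 (adjusted p = 0.135), and its groups did not overlap. alh-13 had 1.34 ± 0.57, with 25.6 CPM in purE replicate 2 against 4.93 and 9.09 CPM in the other purE libraries, and 0.43 without that library. With purE replicate 1 left out instead, edgeR gave 1.61 and an adjusted p of 0.0424. The lowest value of the family was that of alh-11, with -0.12 ± 0.29, or 0.07 without BW25113 replicate 3.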

How the data were processed

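RNA sequencing was analysed for 6 whole-worm libraries, 3 per diet. Read counts per gene were deposited by the authors as estimated counts, of which 91.0% to 92.2% per library were whole, and the deposited tables, 1 per diet, also give FPKM values (scaled to gene length and library size), per the file headers. Per the submitters' processing notes, WBcel235 was the genome build; for aligner, counter and strandedness the sources used here give nothing. Counts were rounded, filtered with edgeR's default filter and scaled with TMM factors (0.844 to 1.20). All CPM values use these factors, and log2 CPM a prior count of 2. edgeR 4.0.16 (R 4.3.3) compared the diets by its quasi-likelihood test over 12144 genes with Benjamini-Hochberg adjustment; standard errors came from the F statistic and 95% intervals from its degrees of freedom. DESeq2 1.42.0 and limma 3.58.1 were alternatives. Code was tested on simulated data. A count of 3, the limit that a count of 0 allows, equals 0.110 to 0.160 CPM and covers counting error only. Coordinates came from an Ensembl annotation of the same build.

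The 8 genes and all lists were chosen with earlier results of these data known. Named from each list were all B12 genes and regulators, and otherwise the members with the highest and lowest fold change at a mean of at least 5 CPM and those with an unadjusted p under 0.05. Replicates of a diet differed beyond counting noise (chi-square over its degrees of freedom, 47.0 to 381). From the breakdown list, mccc-2 and acat-2 were not analysed here.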

Additional observations from a re-analysis of the deposited data

How the results depend on the processing

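The counts of 0 genes called and 0 with an unadjusted p under 0.05 among the 8 were unchanged under all 17 alternatives. Over all genes, DESeq2 called 946 (760 higher, 186 lower), the replicate block 2, and omitting single libraries 0 to 1852, the highest without purE replicate 1 (1406 higher, 446 lower). Deviations of same-numbered libraries had correlations of -0.14, -0.17 and 0.14, and those of differently numbered libraries ran from -0.17 to 0.21. Deviations from a mean of 3 libraries offset one another, so these values cannot decide whether replicate numbers pair the libraries. Omitting single libraries gave ranges of -0.87 to 0.35 for acdh-1, -0.74 to 0.21 for hach-1, -0.67 to 0.10 for hphd-1, -0.29 to 0.11 for alh-8, 0.32 to 0.60 for pcca-1, 0.02 to 0.19 for mmcm-1, -0.053 to 0.38 for pccb-1 and -0.027 to 0.37 for mce-1; among the other genes, -1.05 to -0.19 for mmaa-1, -0.58 to -0.13 for metr-1, 0.05 to 0.35 for mmab-1, 0.07 to 0.76 for mrp-5, -0.56 to -0.04 for nhr-68, -0.31 to -0.03 for nhr-49, -0.70 to 0.034 for mtrr-1, -0.040 to 0.19 for cblc-1, -0.11 to 0.57 for pmp-5, -0.40 to 0.10 for nhr-10, -0.17 to 0.69 for nhr-114, -0.17 to 0.082 for mdt-15, -0.20 to 0.35 for ech-6, -0.10 to 0.25 for ivd-1, -2.43 to 0.027 for acdh-2 and -0.34 to 0.067 for alh-11. mdt-15 was also positive at 1 CPM in 3 libraries (0.024), with upper quartile scaling (0.012), limma-voom (0.0023) and the replicate block (0.0061). With limma on log2(FPKM + 1) and log2(FPKM + 0.1), ech-6 had -0.0316 and -0.0320 and ivd-1 -0.0211 and -0.0215. Library size alone moved the median of all genes by -0.11 and FPKM by -0.12 and -0.13; the causes were not tested. With 3 libraries a diet and these spreads, the interval of acdh-1 was too wide to show a 2-fold difference. With the 100 most abundant genes left out, alh-8 was not tested.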
